A study of Mus musculus with 2 samples.

Results

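Tshz1, Tshz2 and Tshz3 are the 3 Teashirt genes among the 32285 genes counted in mouse forebrain at embryonic day 18.5, and they are described here across the cell types of that tissue. They were taken by symbol from both count tables. Cells were droplet barcodes with at least 1000 UMIs (unique molecular identifiers, 1 per counted transcript), at least 500 genes and at most 10% mitochondrial UMIs. The wild-type library gave 9086 such cells and the library labelled Cyfip2 knockout 12855. After removal of likely doublets 8426 and 11533 cells remained. Each library pooled 2 whole forebrains, dissociated with papain, from embryos at embryonic day 18.5. One group carries the label WT and the other Cyfip2 knockout. The sources used here do not give the strain, the sex, the allele or whether the embryos of a pool were littermates. With 1 library per genotype, cells are not replicates, no difference between the libraries was tested, and every 95% interval covers counting error only.

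Teashirt genes encode zinc finger transcription factors with an additional homeodomain, related to the fly gene teashirt, which patterns the trunk. They act mainly as repressors together with corepressors such as CtBP. In the mouse forebrain, Tshz1 is known from immature olfactory bulb interneurons and from the intercalated cells of the amygdala. Tshz2 is known as a marker of cortical projection neurons later in life, and Tshz3 is required in cortical projection neurons and has been linked to autism when 1 copy is lost.

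In the GRCm38 build (GENCODE vM21 annotation), Tshz1 (ENSMUSG00000046982) spans 84011627 to 84087706 of chromosome 18, minus strand. Tshz2 (ENSMUSG00000047907) spans 169633013 to 170071816 of chromosome 2 and Tshz3 (ENSMUSG00000021217) 36698118 to 36773553 of chromosome 7, both on the plus strand. Inside Tshz2 this annotation places 3 other features and inside Tshz3 another 4, none of which is among the genes of the files. Whether reads from them entered the counts was not tested. Values are UMIs per gene and not per length, so each gene is compared with itself across cells and never with the other Teashirt genes.

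The libraries held 123978461 and 150828048 UMIs, and kept cells had medians of 9567 and 7787 UMIs. They shared 32 cell barcodes. Where a pair of values stands together, the wild-type library comes first. Counts were summed over the cells of a class and divided by its total (CPM, counts per 1000000 UMIs). The tags of Cyfip2, the targeted gene, were at 84.9 CPM (83.0 to 86.7; 8253 UMIs) and 84.4 CPM (82.7 to 86.1; 9247 UMIs). The log2 ratio was -0.01 over all cells, -0.18 (-0.23 to -0.12) in excitatory neurons and -0.14 (-0.24 to -0.03) in GABAergic neurons. In progenitors the gene was at 39.8 and 65.9 CPM (0.72; 0.60 to 0.85), and in microglia-like cells at 1.95 and 40.7 CPM (1 and 31 UMIs). Over all cells the tags thus did not drop in the library labelled knockout. Which part of the gene was deleted is not stated in the labels, and a tag outside it checks nothing. That library is therefore called knockout-labelled throughout, and directions between the libraries rest on the label.

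The Teashirt genes were chosen by measured values of these same libraries: their levels by cell class and the lower Tshz3 level in upper-layer neurons of the knockout-labelled library. The levels and ratios below are therefore descriptions and support nothing by themselves. Barcodes just below the cell threshold (500 to under 1000 UMIs; 519 and 1032 barcodes) had Tshz1 at 117 and 75.9 CPM, Tshz2 at 101 and 93.8 CPM, and Tshz3 at 43.6 and 42.8 CPM. Barcodes just above it (1000 to under 1500 UMIs; 290 and 590) had Tshz1 at 113 and 96.9 CPM, Tshz2 at 70.3 and 128 CPM, and Tshz3 at 45.0 and 55.2 CPM. Free RNA, read from barcodes under 100 UMIs, held Tshz1 at 30.8 and 47.7 CPM, Tshz2 at 24.3 and 28.1 CPM, and Tshz3 at 37.2 and 28.9 CPM. It made up an estimated 2.66% and 2.39% of the UMIs of kept cells. This and later estimates divide the share of haemoglobin UMIs in cells by their share in free RNA. They thus take every haemoglobin UMI in a cell as free RNA.

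The 3 genes were highest in different forebrain populations. Clustering without the Teashirt genes gave 29 clusters, of which 24 took a class name from fixed markers and 23 had at least 50 cells in each library. Tshz1 was highest in GABAergic cluster 8, which has no class name and is led by Pbx3, Aldh1a3, Foxp2, Six3 and Sp8. Tshz2 was highest in cluster 11 of direct-pathway-like striatal neurons, led by Isl1, Zfp503 and Ebf1. That cluster held little of the direct-pathway markers Drd1 (5.61 and 13.4 CPM) and Tac1 (0 and 6.05 CPM). In cluster 12, the other direct-pathway-like cluster, Drd1 was at 23.3 and 23.2 CPM and Tac1 at 57.9 and 123 CPM. Tshz3 was highest in the deep-layer-like cortical clusters 19 and 10, led by Hs3st4 with Tle4 and by Nts with Fezf2. Each of these first places held in both libraries.

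**Figure D1:**
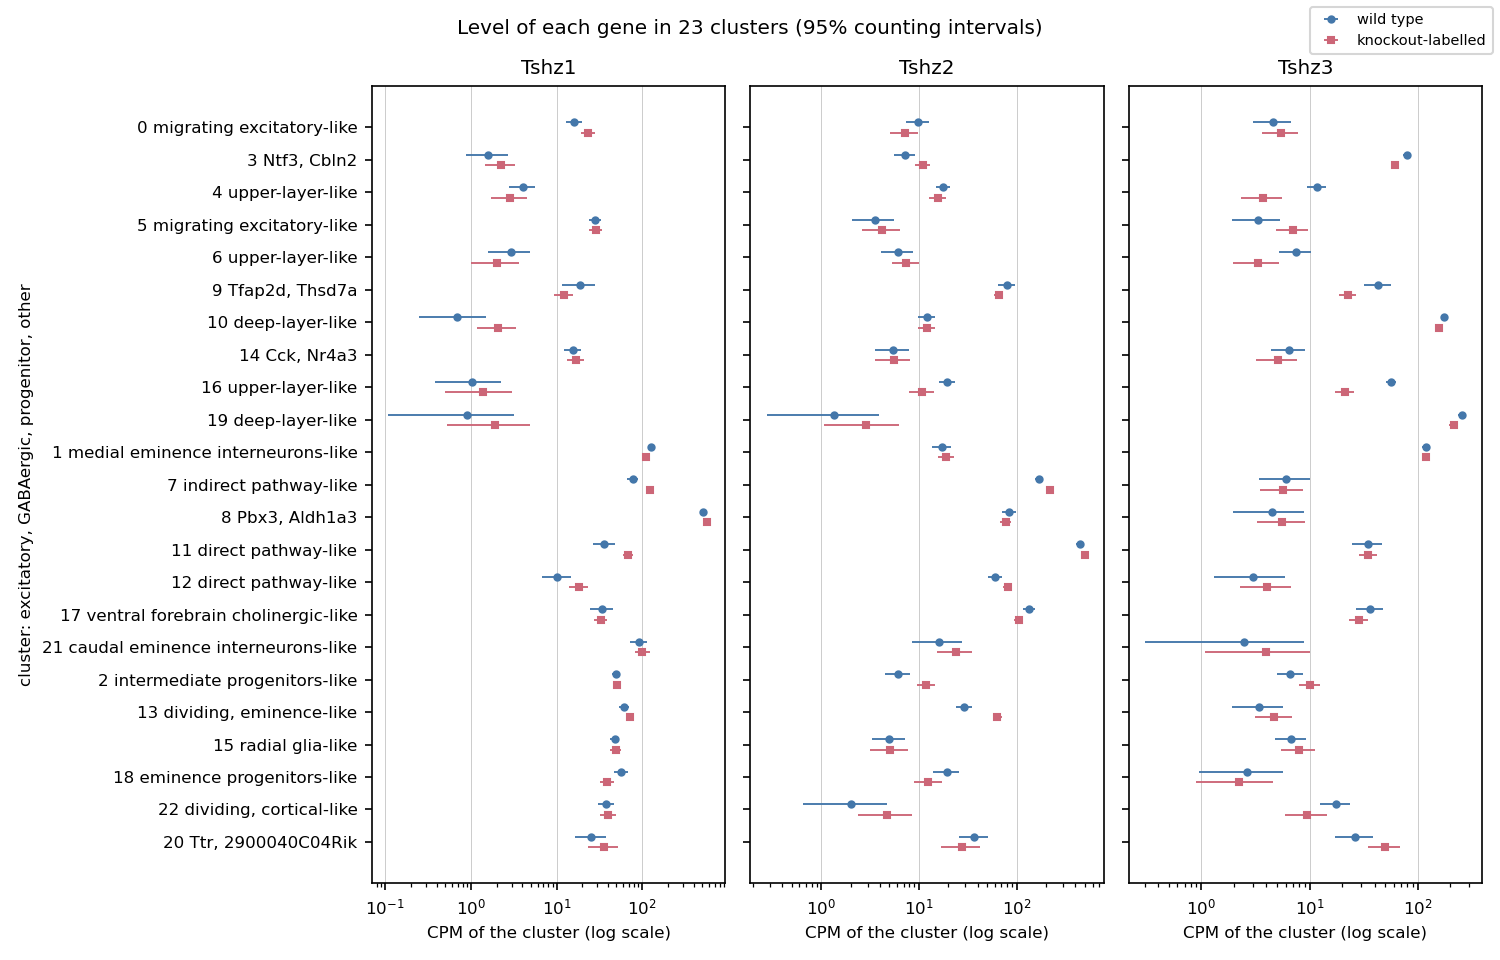
Level of Tshz1, Tshz2 and Tshz3 in the 23 clusters with at least 50 cells in each library. The x axis is CPM of the cluster on a log scale, points are the wild-type (circles) and knockout-labelled (squares) libraries, lines are 95% counting intervals, and clusters without a class name carry their leading genes. Tshz1 stands highest in cluster 8, Tshz2 in cluster 11 and Tshz3 in clusters 19 and 10.

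The highest cluster stood 17.9-fold and 17.5-fold above the median cluster for Tshz1, 25.6-fold and 40.5-fold for Tshz2, and 34.2-fold and 27.1-fold for Tshz3. Below the leading clusters the order was loose. Of the 22 pairs of neighbours in the order of levels, intervals were separate in 3 and 4 for Tshz1, in 4 and 4 for Tshz2, and in 4 and 4 for Tshz3. A level of at least 50 CPM was reached in 6 and 7 clusters by Tshz1, in 6 and 7 by Tshz2, and in 5 and 4 by Tshz3.

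The pattern across clusters was much the same in both libraries: the Pearson correlation of log2(CPM + 1) between them over the 23 clusters was 0.98 for Tshz1, 0.97 for Tshz2 and 0.94 for Tshz3. Between the genes it was 0.36 and 0.47 for Tshz1 with Tshz2, -0.52 and -0.32 for Tshz1 with Tshz3, and -0.06 and -0.05 for Tshz2 with Tshz3. These are descriptions over clusters that share a library. Among these 23 clusters, none had both Tshz2 and Tshz3 at 50 CPM or more in either library, and 1 had both Tshz1 and Tshz3 there. Both Tshz1 and Tshz2 reached that level in 2 and 4 clusters.

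Tshz1 was mainly a gene of GABAergic neurons and progenitors and was low in the clusters grouped as excitatory neurons. Its level was 124 CPM (119 to 130) and 140 CPM (135 to 145) in GABAergic neurons, 50.8 and 53.1 CPM in progenitors, and 7.30 and 8.40 CPM in excitatory neurons. Deep-layer-like neurons held 8 and 20 UMIs in all (0.727 and 2.04 CPM). Among the named excitatory classes it was highest in migrating neurons, at 21.9 and 26.0 CPM. GABAergic cluster 12 was lower than these, at 10.1 and 18.1 CPM. Cajal-Retzius-like cells, grouped apart, held 53 and 59 UMIs in 38 and 59 cells. Subtraction of free RNA left 68.8 and 54.0 CPM there.

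In cluster 8, Tshz1 was at 506 CPM (474 to 541; 893 UMIs) and 575 CPM (548 to 603; 1739 UMIs). These cells were 3.71% and 5.36% of all cells and held 24.9% and 33.9% of the Tshz1 UMIs. A Tshz1 UMI was seen in 34.2% (28.9 to 39.7) and 31.9% (28.2 to 35.7) of them after every cell was thinned to 1000 UMIs, and in 60.1% and 56.1% before thinning, at median depths of 4774 and 4045.5 UMIs. Microglia-like cells, used as a type that should lack the gene, gave 0% of 42 cells (up to 8.41%) and 1.35% of 74 (0.0342 to 7.30), at medians of 10700 and 9184 UMIs. Positive cells of cluster 8 carried a mean of 4.75 and 5.01 UMIs, and up to 22 and 28.

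After cluster 8 came medial-eminence-like interneurons (125 and 110 CPM), indirect-pathway-like striatal neurons (77.3 and 122 CPM) and caudal-eminence-like interneurons (90.7 and 99.9 CPM). In the wild-type library the interval of the medial-eminence-like interneurons lay above that of the next cluster, while in the other library the intervals of these 3 classes overlapped. The 5 progenitor clusters ran from 38.1 to 61.3 CPM and from 39.0 to 72.2 CPM. Radial-glia-like cells, the neural stem cells of the cortex, were at 47.7 and 48.8 CPM, and intermediate-progenitor-like cells at 49.4 and 50.9 CPM.

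A finer clustering split cluster 8 into populations with very different Tshz1 levels. Finer cluster 29 (99 and 186 cells) was led by Pbx3, Foxp2, Adarb2 and Casz1 and matched the fixed markers of intercalated amygdala cells. It had Tshz1 at 1164 and 1247 CPM (575 and 1191 UMIs). Finer cluster 27, led by Aldh1a3, Six3 and Sp8, was at 264 and 275 CPM, and finer cluster 30, led by Slc18a2, at 152 and 219 CPM. Sp8, a factor of olfactory bulb interneurons, was at 28.3 and 31.4 CPM in finer cluster 29, 170 and 149 CPM in 27, and 129 and 185 CPM in 30. Foxp2 ran the other way, at 1561 and 1457 CPM, 324 and 235 CPM, and 202 and 262 CPM. Thus these finer clusters of cluster 8 fell into a Foxp2-high group and Sp8-high groups, with the highest Tshz1 level in the Foxp2-high one.

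**Figure D2:**
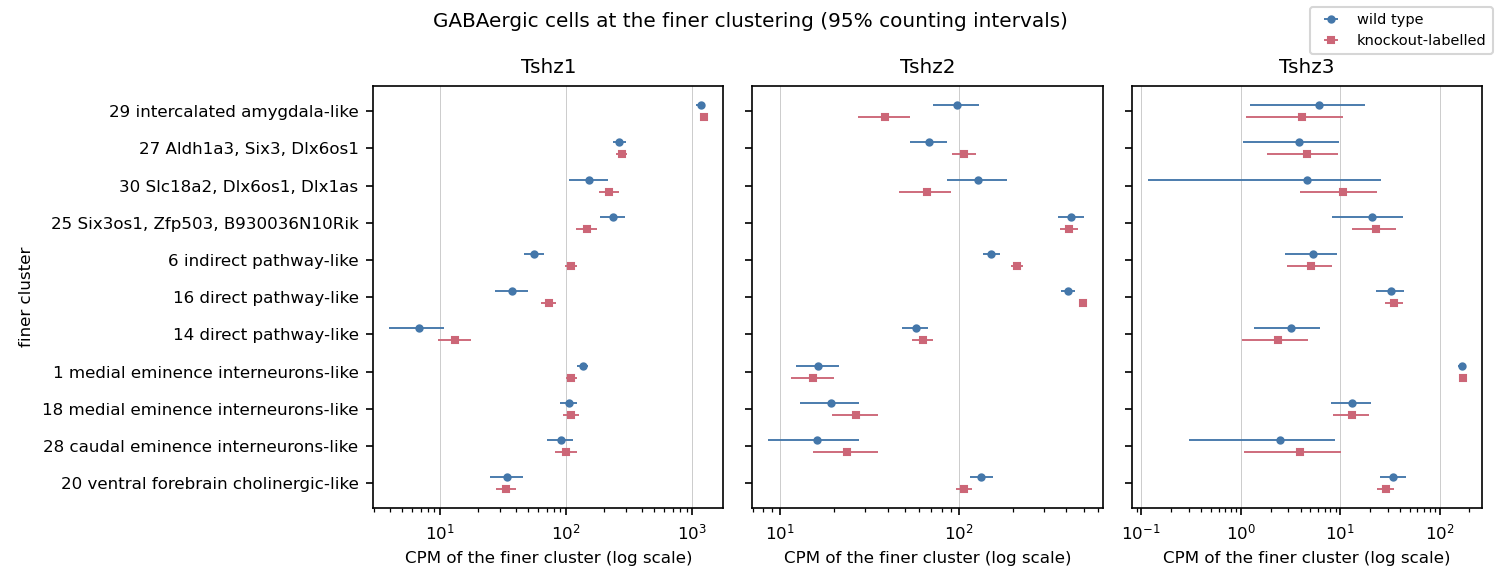
Level of the 3 genes in 11 GABAergic populations at the finer clustering. The x axis is CPM on a log scale, points are the wild-type (circles) and knockout-labelled (squares) libraries, and lines are 95% counting intervals. Tshz1 is highest in finer cluster 29, Tshz2 in 25 and 16, and Tshz3 in 1, one of the 2 medial-eminence-like clusters.

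Between the libraries, a gene was called higher or lower by a rule of size: a ratio of at least 1.5-fold, with an interval that leaves out 1, for genes that reached 20 CPM in 1 of the libraries and 100 counts in both together. By it Tshz1 was not called over all cells, where 0.542% of 7012 measured genes were called. It was at 36.9 CPM (3588 UMIs) and 46.8 CPM (5129 UMIs), a log2 ratio of 0.34 (0.28 to 0.40). With equal weights for each cluster in both libraries the log2 ratio was 0.0018. In GABAergic neurons, with 0.6% of genes called, it was 0.17 (0.09 to 0.25) for Tshz1, and in cluster 8, with 2.71% called, 0.18 (0.07 to 0.30). Both were within the 1.5-fold limit. Medial-eminence-like interneurons (0.563% called) had -0.19 (-0.36 to -0.03), also within it.

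Tshz1 was called higher in the knockout-labelled library in striatal neurons. In indirect-pathway-like neurons it was at 77.3 CPM (66.7 to 89.1; 190 UMIs) and 122 CPM (111 to 134; 431 UMIs), a log2 ratio of 0.66 (0.41 to 0.92), against a background of 1.63% of genes called. In direct-pathway-like neurons it was at 18.4 and 40.4 CPM (72 and 270 UMIs), a ratio of 1.13 (0.75 to 1.53), where 1.35% of genes were called. The mean of per-cell CPM gave 0.58, just under 1.5-fold, which ends the call. In cluster 11 of the latter, with 5.04% called, it was at 36.1 and 68.2 CPM (0.92; 0.45 to 1.42). Cluster 12, the other direct-pathway-like cluster, led by Ebf1, Rxrg and Tac1, had 10.1 and 18.1 CPM and did not reach the minimum for a call. The higher level thus appeared in all 3 striatal clusters, on low counts in cluster 12.

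The size of the difference in indirect-pathway-like neurons changed with the depth of the cells. Cells under 5000 UMIs had 198 and 188 CPM, cells of 5000 to under 10000 UMIs 55.6 and 109 CPM, and deeper cells 45.6 and 98.6 CPM. The mean over cells of each cell's own CPM gave a log2 ratio of 0.27. Positive cells carried a mean of 1.98 and 2.66 UMIs, and 0 and 5 cells had 10 or more. The shares of cells with a UMI were 8.53% (5.91 to 11.8) and 10.2% (7.92 to 12.9) thinned, and 25.6% and 26.7% unthinned. Unthinned, the libraries thus differed more in UMIs per positive cell than in the share of positive cells.

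At the finer clustering, the cells of this class fell mostly into finer cluster 6, which had Adora2a, Drd2 and Penk among its leading genes and Tshz1 at 55.7 and 109 CPM (0.96; 0.67 to 1.27). A smaller finer cluster, 25, had 50.5% of its cells from this class, and its Tshz1 ran the other way, at 234 and 146 CPM (-0.67; -1.11 to -0.24). It held 123 and 283 cells, with the direct-pathway markers Ebf1 at 1910 and 2271 CPM and Isl1 at 414 and 510 CPM. In the indirect-pathway-like class Ebf1 was at 35.0 and 32.9 CPM and Isl1 at 17.1 and 25.3 CPM. Free RNA in the class as a whole was put at 4.05% and 8.40% of UMIs, and subtracting it left 79.3 and 129 CPM. Summed markers of GABAergic neurons there were at 1485 and 1488 CPM (9 of 9 above 0 in each library) and those of cortical excitatory neurons at 74.5 and 107 CPM (8 of 8). Their part in the result was not tested.

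Tshz2 was a gene of striatal and ventral forebrain neurons. Cluster 11 of the direct-pathway-like neurons had 442 CPM (405 to 480; 551 UMIs) and 505 CPM (480 to 532; 1505 UMIs), and its 2.22% and 4.83% of cells held 20.9% and 30.1% of all Tshz2 UMIs. A Tshz2 UMI was seen in 29.9% (23.5 to 37.1) and 31.4% (27.6 to 35.5) of these cells thinned, and in 54.0% and 59.1% unthinned, at medians of 6734 and 4710 UMIs. Thinned microglia-like cells gave 0% in both libraries (up to 8.41% and 4.86%).

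The 2 direct-pathway-like clusters differed from each other in both libraries. Cluster 12 had 60.5 CPM (51.5 to 70.6) and 80.7 CPM (71.8 to 90.4), several-fold below cluster 11. Between them lay indirect-pathway-like neurons, at 169 CPM (153 to 186) and 218 CPM (203 to 234), and ventral-forebrain-cholinergic-like neurons, at 135 CPM (116 to 156) and 105 CPM (94.9 to 116). GABAergic cluster 8, at 83.3 and 77.4 CPM, stood above cluster 12 in the wild-type library and below it in the other. Finer cluster 25, led by Six3os1 and Zfp503 and drawn in part from the indirect-pathway-like class, had 426 and 415 CPM. The populations with most Tshz2, cluster 11 and finer cluster 25, both had Zfp503, a factor of striatal neurons, among their leading genes. Cluster 12 did not, but it too held Zfp503, at 222 and 209 CPM beside 627 and 553 CPM in cluster 11. Over all cells Zfp503 was at 25.9 and 38.5 CPM.

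Among excitatory neurons Tshz2 was highest in cluster 9, led by Tfap2d and Thsd7a, at 79.4 CPM (64.2 to 97.2) and 65.4 CPM (58.7 to 72.6). It was otherwise low there, with 15.4 and 11.5 CPM in upper-layer-like and 9.81 and 10.1 CPM in deep-layer-like neurons. The deep-layer-like cluster 19 held 3 and 6 UMIs in all (1.34 and 2.89 CPM). Radial-glia-like cells had 4.98 and 5.05 CPM.

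Outside neurons, vascular-like cells (33 and 69 cells) had Tshz2 at 77.8 and 145 CPM, called higher at a log2 ratio of 0.89 (lower bound 0.33), where 30.2% of measured genes were called. The mix of cells differed: summed endothelial markers were at 1055 and 6012 CPM and mural markers at 10264 and 3648 CPM. At the finer clustering, the endothelial-led cells (8 and 43 cells) had 210 and 176 CPM, and the mural-led cells (26 and 26) had 44.5 and 28.6 CPM. Neither of these 2 groups was higher in the knockout-labelled library. Border-macrophage-like cells had no Tshz2 UMI in either library (26 and 68 cells), which allows up to 6.47 and 3.32 CPM. Cajal-Retzius-like cells (38 and 59), the early-born neurons of the marginal zone, had 89.9 and 53.9 CPM, called lower at -0.74 (-1.26 to -0.22), where 5.33% of genes were called. Their summed GABAergic markers were at 66.8 and 14.6 CPM. The part of these in the result was not tested.

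Over all cells, Tshz2 was at 27.1 CPM (26.1 to 28.1; 2635 UMIs) and 45.6 CPM (44.4 to 46.9; 5001 UMIs), a log2 ratio of 0.75 (0.68 to 0.82), and was called higher. With equal cluster weights the ratio was 0.17. The classes rich in Tshz2 took a larger share of the knockout-labelled cells, with 2.22% and 4.83% of cells in cluster 11 and 1.77% and 3.48% in the ventral-forebrain-cholinergic-like cluster. Whether dissection, capture or the genotype set these shares cannot be told apart with 1 library of each. Within the GABAergic classes richest in Tshz2 the log2 ratio was 0.37 (0.19 to 0.54) in indirect-pathway-like neurons, 0.20 (0.05 to 0.34) in cluster 11, 0.42 (0.13 to 0.70) in cluster 12 and -0.36 (-0.62 to -0.10) in ventral-forebrain-cholinergic-like neurons. For direct-pathway-like neurons as a whole it was 0.57 (0.44 to 0.70), and 0.22 with equal weights for the 2 clusters.

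Of the named classes of neural cells, Tshz2 was called higher in the dividing eminence-like progenitors, cycling cells that give rise to GABAergic neurons. Tshz2 was at 29.1 CPM (24.2 to 34.6; 127 UMIs) and 63.4 CPM (57.0 to 70.3; 361 UMIs), a log2 ratio of 1.13 (0.83 to 1.43), against 0.968% of genes called. It ranked 6504 of the 6507 measured genes from the lowest ratio. In cells of 10000 or more UMIs the level was 22.9 CPM (18.4 to 28.1) in the wild-type library and 51.4 CPM (45.1 to 58.2) in the other. In shallower cells the intervals overlapped, with 8 and 52 UMIs under 5000 (60.3 and 145 CPM) and 29 and 62 UMIs from 5000 to under 10000. The shares of cells with a UMI were 3.38% (1.56 to 6.33) and 4.77% (2.98 to 7.20) thinned, and 21.4% and 22.3% unthinned. Positive cells carried a mean of 2.23 and 3.68 UMIs, and at most 9 and 34. A few cells carried much of it in both libraries: the top 10 cells held 42.5% and 45.4% of the Tshz2 UMIs. Cells with 10 or more UMIs numbered 0 of 266 and 11 of 440.

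Beside this, summed markers in these dividing cells were at 1900 and 2118 CPM for striatal projection neurons (13 and 14 of 14 above 0), 2885 and 3083 CPM for GABAergic neurons (9 of 9 in each) and 136 and 211 CPM for ventral forebrain cholinergic neurons (5 and 4 of 5). Their part in the result was not tested. Over all progenitors, where 0.377% of genes were called, Tshz2 was at 11.1 and 22.9 CPM and called higher (1.04; 0.82 to 1.26), or 0.67 with equal cluster weights. The dividing eminence-like cells gave 127 of 253 and 361 of 521 of these UMIs. Intermediate-progenitor-like cells were at 6.15 and 11.9 CPM, under the minimum for a call.

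Tshz3 was highest in deep-layer-like cortical neurons and in 1 group of interneurons, but was not confined to them. Cluster 11 of the direct-pathway-like neurons had 34.5 and 34.9 CPM. Ventral-forebrain-cholinergic-like neurons had 36.1 and 28.4 CPM, and the unnamed cluster 20, led by Ttr, 26.3 and 49.8 CPM. Deep-layer-like neurons had 192 CPM (184 to 201; 2117 UMIs) and 168 CPM (160 to 177; 1651 UMIs), and these 7.05% and 5.23% of cells held 49.2% and 42.2% of all Tshz3 UMIs. Cluster 19 had 257 CPM (237 to 279) and 215 CPM (196 to 236), and cluster 10 had 176 CPM (167 to 185) and 156 CPM (147 to 165). A Tshz3 UMI was seen in 113 of 594 (15.9% to 22.4%) and 108 of 603 (14.9% to 21.2%) deep-layer-like cells thinned and in 86.5% and 81.3% unthinned, at medians of 18062.5 and 15352 UMIs. Thinned microglia-like cells gave 0% (up to 8.41%) and 1.35%.

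Medial-eminence-like interneurons, the source of the parvalbumin and somatostatin cells of the adult cortex, were next at 119 CPM (110 to 130) and 118 CPM (109 to 128). The finer clustering showed that Tshz3 there belonged to 1 of 2 groups. Finer cluster 1, led by Nxph1, Lhx6, Rpp25 and Maf, had 168 and 171 CPM, while finer cluster 18, with Ackr3, Neb and Crabp1 among its leading genes, had 13.2 and 13.2 CPM. Tshz1 did not separate these groups, with 135 and 110 CPM in the first and 105 and 109 CPM in the second. In this class 34.5% and 33.8% of the cells with a Tshz1 UMI also had a Tshz3 UMI, close to the 35.1% and 33.7% of all its cells that had one.

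Excitatory cluster 3, led by Ntf3, Cbln2 and Tox and without a class name, followed at 79.0 CPM (73.2 to 85.1) and 62.0 CPM (57.6 to 66.6). Caudal-eminence-like interneurons held 2 and 4 Tshz3 UMIs (2.49 and 3.96 CPM), and eminence-progenitor-like cells 2.62 and 2.24 CPM. Migrating excitatory neurons, the younger cells of the cortical lineage, had 4.02 and 6.19 CPM. Among cortical excitatory cells, the gene was thus high in deep-layer-like and cluster 3 neurons and low in migrating ones. Upper-layer-like cluster 16 (56.5 and 21.2 CPM) and excitatory cluster 9 (43.1 and 22.5 CPM) lay between these.

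Among named classes in which Tshz3 met the minimum for a call, its ratio was lowest in upper-layer-like neurons. It was at 24.0 CPM (21.9 to 26.3; 463 UMIs in 1356 cells) and 8.35 CPM (up to 9.89; 134 UMIs in 1433 cells), a log2 ratio of -1.52 (-1.81 to -1.24), 2.88-fold lower in the knockout-labelled library. In this class 0.285% of genes were called, and Tshz3 had the lowest ratio of the 6669 measured. This difference was among the results known when the gene was chosen. Over excitatory neurons as a whole, with 0.251% called, it was at 60.9 and 47.3 CPM (-0.37; -0.44 to -0.29), and over all cells at 44.2 and 35.7 CPM (-0.31; -0.37 to -0.25), or -0.06 with equal cluster weights.

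All 3 upper-layer-like clusters had the lower level. Cluster 16, led by Inhba, Usp43, Fst, Nr4a2 and Met, held most of the UMIs, with 56.5 CPM (50.5 to 62.9; 325 UMIs) and 21.2 CPM (17.1 to 26.0; 93 UMIs), a ratio of -1.41 (-1.76 to -1.07). This was the lowest of 6501 measured genes there, of which 1.23% were called. Cluster 4 had 11.7 and 3.68 CPM and cluster 6 had 7.51 and 3.32 CPM, both under the minimum for a call. The share of cells with a UMI in cluster 16 was 5.41% (3.12 to 8.63) and 1.10% (0.228 to 3.19) thinned, and 39.9% and 15.1% unthinned, at medians of 19028.5 and 15796 UMIs. Positive cells there carried a mean of 2.75 and 2.27 UMIs. Here the share of positive cells differed more than the UMIs in each.

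**Figure D3:**
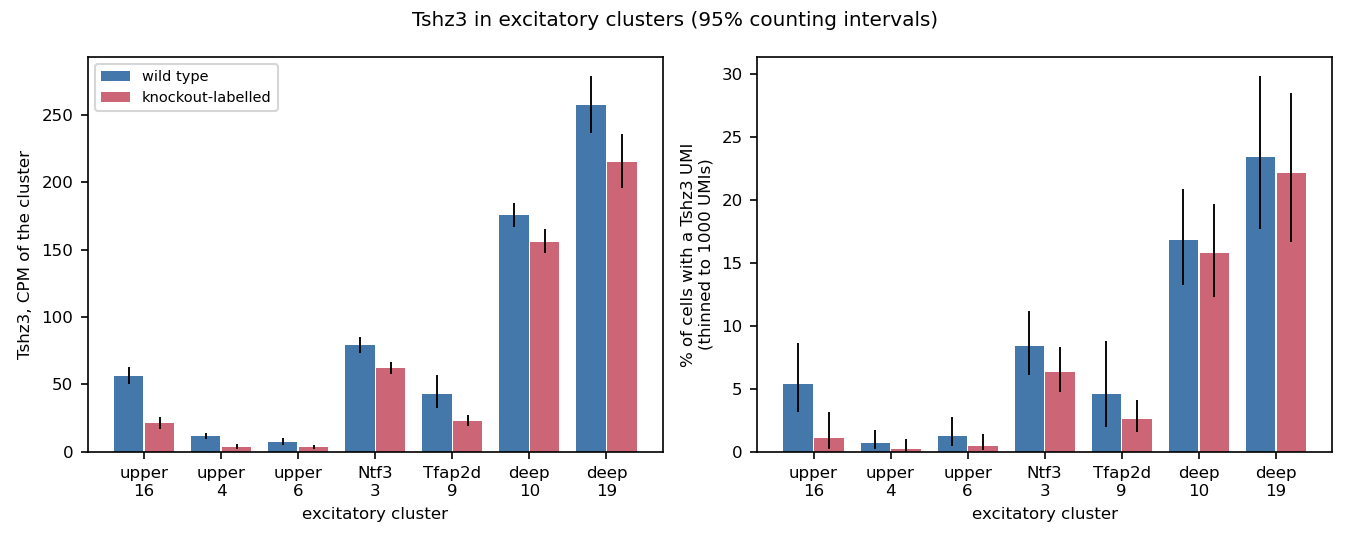
Tshz3 in 7 excitatory clusters: upper-layer-like (16, 4, 6), those led by Ntf3 (3) and Tfap2d (9), and deep-layer-like (10, 19). The left y axis is CPM of the cluster and the right y axis is the percent of cells with a Tshz3 UMI after thinning to 1000 UMIs; bars are the 2 libraries and lines are 95% counting intervals. The intervals in CPM are separate in cluster 16 and in others, among them deep-layer-like clusters 10 and 19, where the bars differ less in proportion.

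Across the depth of upper-layer-like cells, Tshz3 was at 6.97 and 5.69 CPM under 5000 UMIs (3 and 4 UMIs in all), 19.1 and 4.42 CPM from 5000 to under 10000, and 25.3 and 9.83 CPM above. The medians of cell depth were 13090 and 10161 UMIs. At the finer clustering, finer cluster 7, led by Inhba and Grm2 with 72.0% of its cells from cluster 16, had 49.2 and 16.7 CPM (-1.56; -1.91 to -1.22). Finer cluster 17, led by Cck and Cntn2, had 20.2 and 8.57 CPM (-1.24; -1.87 to -0.64). Subtraction of free RNA left 23.8 and 7.86 CPM in the class.

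The layer markers of these cells moved far less. Summed upper-layer markers were at 3619 and 3845 CPM (10 of 10 above 0), deep-layer markers at 353 and 373 CPM (9 of 9), subplate markers at 25.9 and 28.2 CPM (5 and 4 of 6) and cortical excitatory markers at 4118 and 4186 CPM (8 of 8). GABAergic markers were at 12.9 and 26.7 CPM (9 of 9) and medial eminence interneuron markers at 75.5 and 134 CPM (8 of 8), of which Npy made 48.4 and 103 CPM while Lhx6, the defining factor of those interneurons, was at 1.45 and 1.87 CPM. In cluster 16, Npy was at 144 and 322 CPM, Fezf2 at 71.6 and 59.6 CPM, and Nr4a2 at 41.0 and 57.3 CPM. Their part in the result was not tested.

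The ratio in the other cells rich in Tshz3 is given beside it. Deep-layer-like neurons, with 0.288% of genes called, had a log2 ratio of -0.19 (-0.28 to -0.10), and their 2 clusters -0.17 and -0.26. Cluster 3, with 0.168% of genes called, had -0.35 (-0.50 to -0.20). Medial-eminence-like interneurons had -0.02 (-0.18 to 0.15). None of these was called. Whether the ratio in upper-layer-like neurons differed from these was not tested, as each rests on the same 2 libraries and the former was among the values the gene was chosen by.

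Tshz3 was called lower in 1 more cluster, cluster 9, at 43.1 CPM (32.1 to 56.7; 51 UMIs in 176 cells) and 22.5 CPM (18.7 to 26.9; 121 UMIs in 721 cells), a log2 ratio of -0.93 (-1.42 to -0.43). The mean of per-cell CPM gave -0.53, which is under 1.5-fold and ends the call. Here 8.07% of genes were called. Of 10 measured genes of the upper-layer list, 6 were called: Rorb higher, and 5 lower that included Cux2, Pou3f3, Plxnd1 and Mdga1. Of 6 measured deep-layer and subplate genes, 5 were called, Bcl11b and Tle4 higher and Sox5, Ldb2 and Lmo7 lower. In the same cells summed upper-layer markers were at 3124 and 2171 CPM. Ventral forebrain cholinergic markers were at 5.91 and 121 CPM, with 2 and 5 of 5 above 0. Of that list, Isl1 was at 4.22 and 3.35 CPM and Nkx2-1 at 0 and 2.61 CPM, so the sum came mostly from its other members. The part of these marker lists in the result was not tested.

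**Figure D4:**
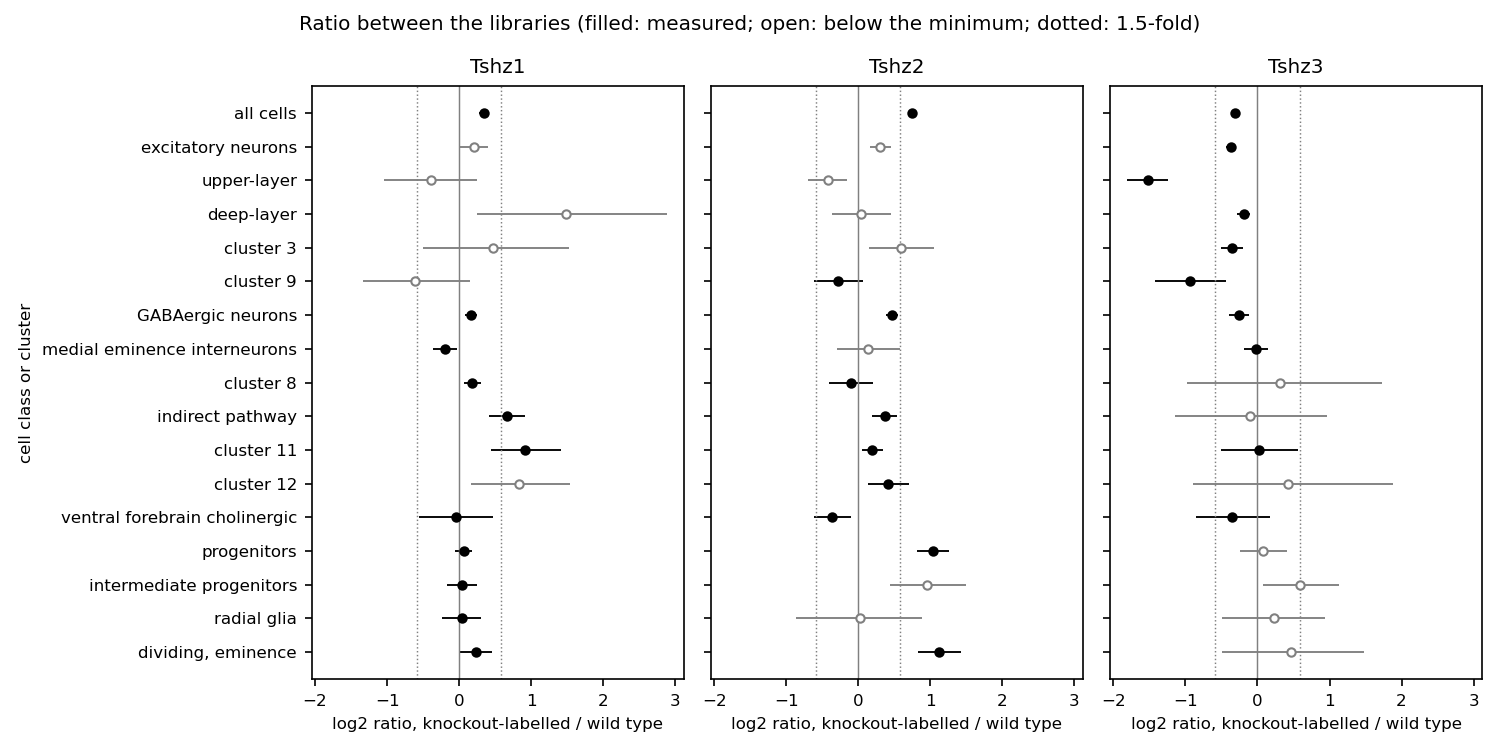
The x axis is the log2 ratio between the libraries (knockout-labelled divided by wild type) for each gene in 17 classes and clusters. Points are ratios with 95% counting intervals, filled where the gene met the minimum for a call and open where it did not, and dotted lines mark 1.5-fold. Tshz3 in upper-layer neurons lies farthest to the left among filled points, and Tshz2 in dividing eminence cells and Tshz1 in striatal clusters lie to the right.

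The cofactors through which Teashirt proteins act were measured beside them. A list of 12 cofactors and partners held the corepressors Ctbp1 and Ctbp2, the histone deacetylases Hdac1 and Hdac2, the adaptor Apbb1, Set, Smarce1, Sox9, and Ctnnb1 with the Wnt factors Tcf7l1, Tcf7l2 and Lef1. Over all cells (0.542% of all genes called) 9 of the 12 were measured and none was called. Their median log2 ratio was -0.08 beside -0.02 for all measured genes. None of 8 measured was called in upper-layer-like (0.285% of all genes called), none of 7 in indirect-pathway-like (1.63%) and deep-layer-like (0.288%), and none of 10 in dividing eminence-like cells (0.968%), with medians of -0.05, -0.07, -0.01 and 0.01 beside -0.01, -0.01, -0.02 and -0.01 for all measured genes. In ventral-forebrain-cholinergic-like neurons, with 5.24% of genes called, 3 of 10 were called higher (Hdac1, Tcf7l2 and Sox9). In vascular-like cells (30.2%) 3 of 7 were called, Ctnnb1 and Lef1 higher and Hdac1 lower, and in Cajal-Retzius-like cells (5.33%) 2 of 7, Sox9 higher and Ctnnb1 lower. The most abundant, Set, was at 1056 and 968 CPM in upper-layer-like neurons and at 982 and 910 CPM in indirect-pathway-like neurons. Ctbp1 was broad, at 145 CPM or more in each of the 23 wild-type clusters and 168 CPM or more in the other library, and Ctbp2 was highest in radial-glia-like cells (125 and 105 CPM).

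The fixed lists of neuronal genes gave few calls in some of the neurons that carry Teashirt genes and many in others. None of 11 measured upper-layer genes was called in upper-layer-like neurons (0.285% of all genes; median 0.08), where Pou3f2 was at 736 and 843 CPM. In their cluster 16 (1.23%) 1 of 11 was called, Cux1, higher at 82.9 and 133 CPM. Of 7 measured deep-layer and subplate genes in upper-layer-like neurons as a whole, Bcl11b, a subcerebral and striatal factor, was called higher (17.3 and 27.2 CPM). In cluster 16 alone none of 6 measured was called. None of 11 deep-layer genes was called in deep-layer-like neurons (0.288%; median -0.10). In indirect-pathway-like neurons (1.63%) 1 of 12 striatal genes was called, Penk, the opioid peptide precursor of that pathway, at 101 and 168 CPM (0.74). In direct-pathway-like neurons (1.35%) Tac1, the substance P precursor, was called higher (39.4 and 70.6 CPM) and Ikzf1 lower (90.0 and 55.4 CPM) of 11. In their cluster 11 (5.04%) 3 of 9 were called, among them Rarb higher (48.9 and 97.1 CPM) and Ebf1 lower (2488 and 1571 CPM). In ventral-forebrain-cholinergic-like neurons (5.24%) 3 of 6 striatal genes were called, Penk higher and Foxp2 and Ebf1 lower. Of 6 deep-layer and subplate genes there 4 were called, Tbr1 and Nxph4 higher and Tle4 and Foxp2 lower. In cluster 8 (2.71%) 2 of 6 striatal genes were called higher, Isl1 among them. None of 9 measured genes of the dorsal lateral eminence list was called there (median -0.06), where Meis2 was at 4198 and 4393 CPM.

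The genes most like each Teashirt gene in pattern were taken from 9236 genes by the lower of the 2 libraries' Pearson correlations of log2(CPM + 1) over the 23 clusters. For Tshz1 they were Zfp516 (0.89), Tmem176b (0.88), Zadh2 (0.86), Sox2 (0.86) and Kat2b (0.85). Zadh2 is the neighbour of Tshz1: it starts 356 bases away on the opposite strand, and it was also highest in cluster 8 (35.1 and 35.0 CPM). Zfp516 lies 1.01 Mb away on the same chromosome. For Tshz2 they were Dchs2 (0.88), Myh7 (0.84), Pid1 (0.81), Acer2 (0.77) and Zfp503 (0.77), the last of which reached 627 and 553 CPM in cluster 11. For Tshz3 they were Tox (0.77), Hs3st2 (0.76), Dlgap1 (0.74), Adcy1 (0.71) and Mmd (0.71), at lower correlations than for the other two.

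The few cells outside these classes add levels on low counts. The oligodendrocyte-lineage-like cells (10 and 16 cells) had Tshz1 at 190 and 65.0 CPM (26 and 8 UMIs), Tshz2 at 117 and 114 CPM (16 and 14 UMIs) and Tshz3 at 36.5 and 114 CPM (5 and 14 UMIs). Meningeal-fibroblast-like cells (18 and 33) had Tshz2 at 43.5 and 80.8 CPM (16 and 51 UMIs). Microglia-like cells had 4 and 7 Tshz1 UMIs, 0 and 6 Tshz2 UMIs, and 1 and 3 Tshz3 UMIs.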

How the data were processed

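UMI counts were used as deposited by the authors, for every barcode before cell calling. Per the file headers they came from Cell Ranger 4, and the submitters' processing notes name the mm10 build. The annotation release is not given in the sources used here. Doublets were scored with Scrublet in scanpy 1.11.5 and the top 0.8% per 1000 cells removed (660 and 1322 cells). Cells were scaled to 10000, and 2000 variable genes without the Teashirt genes, 30 principal components and 15 neighbours were clustered with Leiden (leidenalg 0.10.2) at resolution 1, and 2 for the finer clusters, without aligning the libraries. Class names are "X-like" from fixed markers, by a rule revised after clusters had been seen. Intervals are exact Poisson for CPM and ratios and Clopper-Pearson for shares (scipy 1.17.1). With 1 library per group no test was made. The rules were tested on simulated Poisson counts only. These hold no spread between embryos or libraries, so they cannot show how the rules behave on real libraries. Named genes are the 3 Teashirt genes, the 5 most alike to each, and from each list the called members and the 2 with most counts, plus markers whose values stand beside a result; Ctbp1 and Ctbp2 were added after their values were seen. Members and lists were chosen with earlier results of these data known. Depth bins and splits by finer cluster were chosen after seeing the data. No genome sequence was printed, and UMIs of overlapping features were not separated. Some members of the fixed lists are not reported here by name.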

Additional observations from a re-analysis of the deposited data

How the results depend on the processing

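Of the log2 ratios of the 3 genes under the alternatives (doublets kept, deeper cells, stricter mitochondrial limit, finer or library-centred clustering, Teashirt genes among the variable genes, other size factors, equal cluster weights, mean per-cell CPM, free RNA subtracted), 186 stayed within their counting error and 13 moved, and none of those called changed sign. Over all cells, equal cluster weights gave 0.0018 for Tshz1, 0.17 for Tshz2 and -0.062 for Tshz3, and the mean of per-cell CPM gave 0.26 for Tshz1 and -0.22 for Tshz3. Tshz1 in indirect-pathway-like neurons was 1.09 with at least 2000 UMIs, 0.96 at resolution 2 and 0.27 as mean per-cell CPM, which is under 1.5-fold. Tshz3 in upper-layer-like neurons ran from -1.77 to -1.42, Tshz2 in dividing eminence-like cells from 0.95 to 1.14, Tshz1 in direct-pathway-like neurons from 0.58 to 1.42 and Tshz3 in cluster 9 from -1.27 to -0.53. The smallest size of each of the last pair came from the mean of per-cell CPM and was under 1.5-fold. The count of genes called rose without a minimum of CPM, from 38 to 671 over all cells, from 19 to 143 in upper-layer-like and from 41 to 256 in GABAergic neurons. In upper-layer-like neurons it was 32 with doublets kept and 30 with library-centred genes. The cause was not tested. Of the 5 most alike genes, 3, 2 and 3 stayed with Spearman correlation and 4, 3 and 2 at resolution 2. Depth limits the small classes: in oligodendrocyte-lineage-like cells 3 counts are 21.9 and 24.4 CPM. No paired analysis was possible because each group has 1 library.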
